A study of Mus musculus with 19 samples.

Results

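Tumours from mice given an antibody against PD1 were compared with tumours from mice given an agonist antibody against CD40, over all genes, by RNA sequencing of whole tumour tissue. The comparison used 3 anti-PD1 and 3 anti-CD40 libraries of the 19 libraries in the series, chosen by their labelled treatment and not by any measured value. All the mice were of the strain C57BL/6J. All had received 4-nitroquinoline 1-oxide (4NQO), a DNA-damaging carcinogen that induces squamous cell carcinoma of the mouth, in their water at 100 µg/ml, starting when they were 6 weeks old and lasting 10 weeks, and plain water afterwards. The labels give no clone, dose, schedule or control antibody for either treatment, and the protocol text does not describe the anti-CD40 arm, which the sample titles and treatment labels name. Levels from 4 vehicle libraries are set beside both groups where they show on which side a difference lies. Nothing in the labels states how many animals gave the samples of a group, so a p-value here sets a difference only against the variation from sample to sample, part of which may be technical.

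PD1, encoded by Pdcd1, is an inhibitory receptor on activated T cells. It is engaged by PD-L1, encoded by Cd274, and a blocking antibody removes that brake from T cells that are already in the tumour. CD40 is a receptor on dendritic cells, macrophages and B cells whose ligand, Cd40lg, is carried by helper T cells. An agonist antibody stands in for the ligand, and CD40 then signals through TRAF adaptors and NF-kappa-B to raise antigen presentation and costimulation. Interferon-gamma, made by T cells and natural killer cells, acts through IRF1 and other transcription factors on tumour and myeloid cells alike. It raises MHC molecules, guanylate-binding proteins and the chemokines that call CXCR3-bearing T cells.

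Library totals ran from 18436257 to 22822677 counts with anti-PD1 and from 19152717 to 23330189 with anti-CD40. Keratinocyte genes were abundant in all 6 libraries: Krt14, a keratin of basal squamous epithelium, stood at 2447, 2289 and 2582 scaled counts (CPM, relative to the TMM-scaled library total) with anti-PD1 and 2701, 1655 and 2878 CPM with anti-CD40. Skeletal muscle RNA was also abundant in each of them. Salivary gland genes separated the libraries within both groups: the mean log2 CPM of 12 such genes was 5.97, 5.85 and -1.75 in anti-PD1 libraries 1 to 3 and -0.09, 3.60 and -0.90 in anti-CD40 libraries 1 to 3. Anti-PD1 1, anti-PD1 2 and anti-CD40 2 therefore carried much gland RNA, and they lay on the same side of the first component of the 500 most variable genes, which held 63.5% of their variance over the 6 libraries.

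No gene differed between anti-PD1 and anti-CD40 tumours at an adjusted p under 0.05 in edgeR's quasi-likelihood test over 16909 genes (0% of those tested in either direction), and the smallest adjusted p was 0.092. At an unadjusted p under 0.05, 747 genes were higher with anti-PD1 (4.42% of those tested) and 994 were lower (5.88%), together 10.3%. With only the 6 libraries in the fit the balance turned round, with 670 genes higher and 439 lower at that p, and with the replicate number as a block in those 6 it was 964 higher and 449 lower. Another test on the same libraries, DESeq2, gave no adjusted p for 2296 of the 16909 genes. It put 77 genes past an adjusted p of 0.05, 49 of them higher and 28 lower with anti-PD1. A further test, limma with sample weights, put 33 past it, 22 higher and 11 lower. Irf8, Cd4, B2m, Cd74, Irf1, Rac2, Csf1r, Dusp1, Nr4a1 and Pappa, described below, were among the genes past it in DESeq2. The sides differed in size of change: the median log2 change was 0.55 among the 747 genes that were higher and -0.27 among the 994 that were lower, and 136 against 45 of them differed by 2-fold or more. Over all tested genes the median log2 change was -0.01. Because no gene passed the main test, all changes below are given as values, log2 of anti-PD1 over anti-CD40 ± SE, and a count of genes at an unadjusted p under 0.05 is to be read against those shares.

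**Figure D1:**
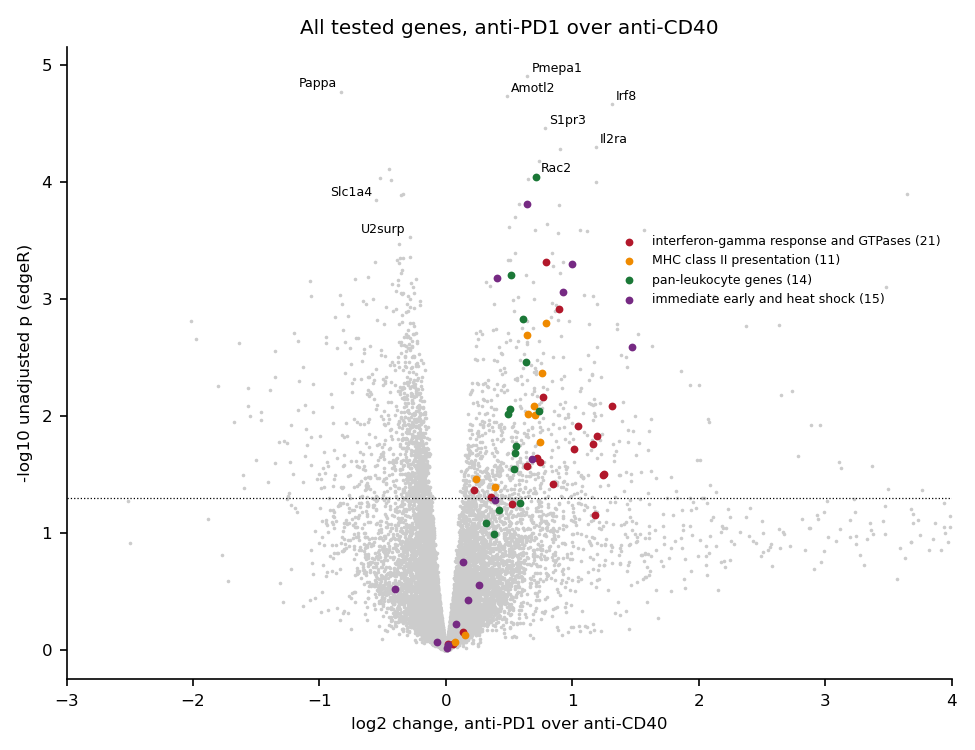
Each point is 1 of 16909 tested genes, with the log2 change of anti-PD1 over anti-CD40 on the x axis and -log10 of the unadjusted p of edgeR's quasi-likelihood test on the y axis; a few genes lie beyond the x range, the dotted line marks the 0.05 level, and the named genes are among those of smallest p in either direction. Points of the interferon-gamma, MHC class II, leukocyte and immediate early lists lie mostly right of 0, and Pappa lies farthest left of the named genes.

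The gene with the largest change among those of smallest p was Irf8, a transcription factor of dendritic cells, macrophages and B cells that also responds to interferon-gamma (ENSMUSG00000041515.10, chr8:120736358-120756694 in GRCm38, plus strand). It stood at 7.44, 7.08 and 8.39 CPM in the anti-PD1 libraries and 2.87, 3.00 and 3.33 CPM in the anti-CD40 libraries. The groups did not overlap, and the lowest anti-PD1 library was above every vehicle library, which stood at 2.50, 5.19, 3.52 and 2.91 CPM. The log2 change was 1.31 ± 0.23 (edgeR adjusted p = 0.092). Il2ra, the high-affinity interleukin-2 receptor chain of regulatory and activated T cells, stood at 2.67, 3.21 and 2.87 CPM with anti-PD1 and 1.15, 1.04 and 1.62 CPM with anti-CD40 (log2 change 1.18 ± 0.23, edgeR adjusted p = 0.121). Rac2, the Rac GTPase of blood cells, varied little within either group, at 5.25, 5.15 and 5.61 CPM with anti-PD1 and 3.08, 3.39 and 3.28 CPM with anti-CD40 (0.71 ± 0.14, edgeR adjusted p = 0.121). Il10ra, the interleukin-10 receptor chain of leukocytes, stood at 9.14, 9.96 and 10.9 CPM with anti-PD1 and 7.47, 4.53 and 5.99 CPM with anti-CD40 (0.74 ± 0.14). These 4 genes belong to leukocytes, and for each of them every anti-PD1 library was above every anti-CD40 library. Such separation occurred for 5.75% of all tested genes. The 4 genes were named for their small p in this same comparison, which favours it, so it adds no support. In whole tissue, more cells of a type and more RNA per cell cannot be told apart.

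The other genes of smallest p that were higher with anti-PD1 act in stroma, vessels and growth control. Pmepa1, a transmembrane protein induced by TGF-beta that dampens its SMAD signalling (ENSMUSG00000038400.15, chr2:173224458-173276533, minus strand), stood at 41.1, 33.6 and 37.8 CPM with anti-PD1 and 23.9, 26.1 and 22.0 CPM with anti-CD40 (0.64 ± 0.11, edgeR adjusted p = 0.092). S1pr3, a receptor for sphingosine-1-phosphate, averaged 18.2 ± 2.63 CPM with anti-PD1 and 10.5 ± 0.288 CPM with anti-CD40 (SD, n = 3 each). Adamts1, a secreted metalloproteinase that cleaves matrix proteoglycans, stood at 43.7, 24.7 and 26.6 CPM with anti-PD1, anti-PD1 1 being far above the others, and 17.2, 18.2 and 15.5 CPM with anti-CD40 (0.90 ± 0.17). Amotl2, an angiomotin that binds YAP and is itself a YAP target (ENSMUSG00000032531.15, chr9:102716672-102733418, plus strand), was of another kind. Its 73.2, 75.3 and 63.2 CPM with anti-PD1 lay close to the vehicle values of 70.9, 66.6, 68.1 and 84.2 CPM, while the anti-CD40 libraries, at 50.8, 48.2 and 52.5 CPM, were below both (0.48 ± 0.08 for anti-PD1 over anti-CD40, edgeR adjusted p = 0.092).

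Among the 8 genes of smallest p that were lower with anti-PD1, Pappa had the largest log2 change. Pappa, a secreted protease that cleaves insulin-like growth factor binding proteins (ENSMUSG00000028370.7, chr4:65124174-65357509, plus strand), stood at 38.4, 40.2 and 34.4 CPM with anti-PD1 and 73.5, 59.4 and 67.4 CPM with anti-CD40. The vehicle libraries, at 47.8, 51.4, 46.5 and 42.4 CPM, lay between the groups and overlapped neither. Its log2 change was -0.83 ± 0.14 (edgeR adjusted p = 0.092). Slc1a4, a transporter of neutral amino acids, stood at 52.0, 58.1 and 59.9 CPM with anti-PD1 and 83.5, 69.8 and 95.6 CPM with anti-CD40 (-0.55 ± 0.12). Vav3 stood at 65.8, 62.8 and 74.4 CPM with anti-PD1 and 94.8, 88.0 and 108 CPM with anti-CD40 (-0.52 ± 0.10). The remaining 5 genes by the same rule were Zbtb7c, a zinc finger repressor, Slc16a6, a monocarboxylate-type transporter, Arl4a, a small GTPase, Myof, a membrane repair protein, and U2surp, a splicing factor. Their log2 changes ran from -0.45 for Zbtb7c to -0.29 for U2surp, and in each the 3 anti-PD1 libraries were below the 3 anti-CD40 libraries. Such separation without overlap occurred for 7.39% of all tested genes in this direction and for 5.75% in the other. The genes here were named for their small p, which favours such separation, so it adds no support.

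**Figure D2:**
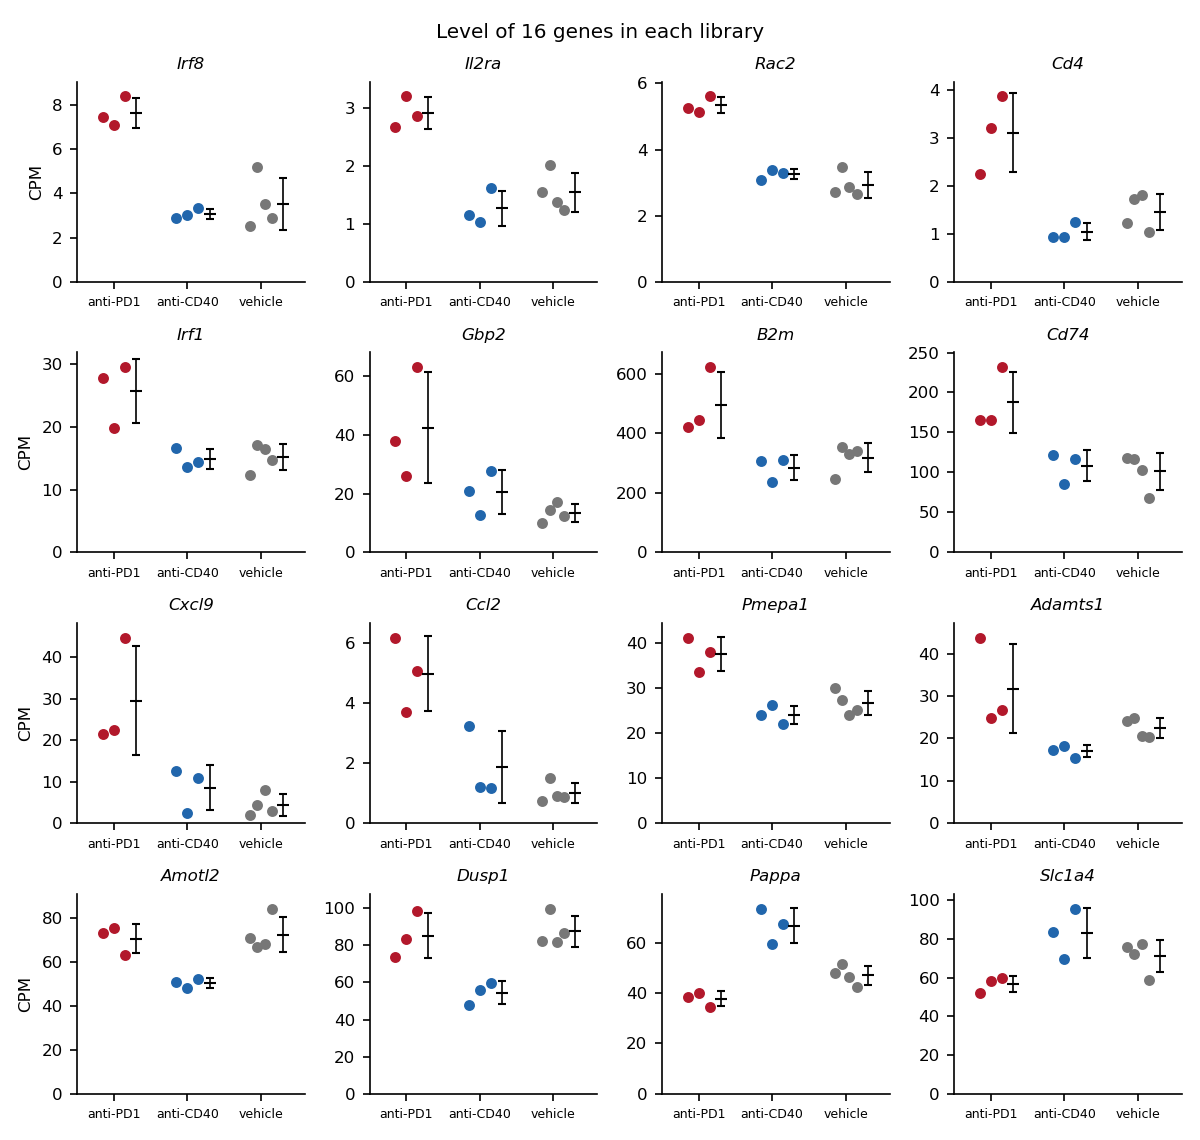
Level in CPM of 16 genes in each library (points) of the anti-PD1 (n = 3), anti-CD40 (n = 3) and vehicle (n = 4) groups, with the mean and SD as a bar to the right of each group; each y axis starts at 0. Irf8, Cd4, B2m and Cd74 are higher in all 3 anti-PD1 libraries than in any anti-CD40 library, Amotl2 and Dusp1 have their low values in the anti-CD40 group, and Pappa is lowest with anti-PD1 and highest with anti-CD40.

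T-cell genes had few counts, and some of them stood higher with anti-PD1. Of 24 listed genes of the T-cell receptor and of cytotoxic cells, 17 had enough counts to be tested. Of these, 4 were higher with anti-PD1 at an unadjusted p under 0.05 and 0 lower (unadjusted p shares over all genes 4.42% and 5.88%), with a median log2 change of 0.60 against -0.01 over all genes. Cd4, the co-receptor of helper and regulatory T cells that some myeloid cells also carry, stood at 2.24, 3.21 and 3.86 CPM with anti-PD1 and 0.940, 0.928 and 1.25 CPM with anti-CD40, while vehicle libraries held 1.23, 1.71, 1.81 and 1.04 CPM. Its log2 change was 1.56 ± 0.35 (edgeR adjusted p = 0.158). Cd247, the zeta chain of the T-cell receptor complex, stood at 1.65, 1.38 and 1.39 CPM with anti-PD1 and 0.835, 0.710 and 0.582 CPM with anti-CD40 (1.06 ± 0.24). Nkg7 and Klrk1, genes of cytotoxic lymphocytes, were the other 2, at log2 changes of 1.18 ± 0.41 and 0.98 ± 0.36.

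The CD3 chain Cd3e overlapped between the arms. It stood at 0.729, 1.22 and 1.66 CPM with anti-PD1 and 0.888, 1.09 and 1.37 CPM with anti-CD40, and both groups lay above the 4 vehicle libraries, at 0.437, 0.605, 0.692 and 0.259 CPM. The log2 change between the arms was 0.10 ± 0.30 (edgeR adjusted p = 0.946). Cd8a, which marks cytotoxic T cells, stood at 0.437, 0.720 and 0.808 CPM with anti-PD1 and 0.522, 0.546 and 0.540 CPM with anti-CD40 (0.29 ± 0.47, edgeR adjusted p = 0.885). A pair of effector genes did not pass the count filter: Gzmb, a killing protease, had 4, 4 and 12 counts with anti-PD1 and 8, 2 and 5 with anti-CD40. Ifng, which encodes interferon-gamma, had 3, 1 and 4 counts with anti-PD1 and 2, 0 and 1 with anti-CD40. At this depth no difference in either could be detected. Of the 17 T-cell genes, 7 were higher at an unadjusted p under 0.05 without anti-PD1 1, which had the lowest list mean of its group. The count was 3 without anti-PD1 3, where the median log2 change was 0.40, and also 3 without anti-CD40 3.

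Checkpoint and regulatory T-cell genes leaned to anti-PD1. Pdcd1, which encodes the antibody's target, overlapped between the groups at 0.535, 1.11 and 0.853 CPM with anti-PD1 and 0.574, 0.655 and 0.457 CPM with anti-CD40 (0.56 ± 0.42, edgeR adjusted p = 0.675). Its ligand gene Cd274 stood at 7.19, 10.5 and 17.7 CPM with anti-PD1 and 6.79, 4.48 and 10.2 CPM with anti-CD40, overlapping in 1 library of each group (0.72 ± 0.31, edgeR adjusted p = 0.437). Of 14 tested genes of the PD1 axis and other checkpoints, 4 were higher at an unadjusted p under 0.05 and 0 lower, the others being Tigit and Lag3, inhibitory receptors, and Tnfrsf9, a costimulatory receptor. The log2 changes of Tigit, Lag3 and Tnfrsf9 were 1.44 ± 0.55, 1.00 ± 0.38 and 1.09 ± 0.40, and none of these 3 overlapped between the groups. In 5 of the 14 genes every anti-PD1 library was above every anti-CD40 library, against 5.75% of all tested genes. The count at an unadjusted p under 0.05 was 1 without anti-CD40 1 and 2 without anti-PD1 2 or anti-PD1 3. In the regulatory T-cell list 4 of 7 tested genes were higher at that p and 0 lower, with a median log2 change of 0.48. Foxp3, the defining transcription factor of these cells, stood at 1.56, 0.996 and 1.93 CPM with anti-PD1 and 0.835, 0.710 and 0.790 CPM with anti-CD40, and vehicle libraries held 0.437, 0.605, 0.586 and 0.571 CPM (0.94 ± 0.32, edgeR adjusted p = 0.312). Tnfrsf1b, the second TNF receptor, stood at 10.6, 10.4 and 11.1 CPM with anti-PD1 and 7.36, 7.70 and 6.86 CPM with anti-CD40 (0.55 ± 0.12).

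Most interferon-gamma response genes stood higher with anti-PD1. Of 21 tested, 16 were higher with anti-PD1 at an unadjusted p under 0.05 and 0 lower, with a median log2 change of 0.79. Irf1, a transcription factor induced by interferon-gamma, stood at 27.8, 19.9 and 29.6 CPM with anti-PD1 and 16.6, 13.6 and 14.5 CPM with anti-CD40, and at 12.4, 17.1, 16.5 and 14.8 CPM in vehicle libraries. Its log2 change was 0.79 ± 0.19 (edgeR adjusted p = 0.195). Gbp2, a guanylate-binding protein that acts on intracellular pathogens, stood at 38.0, 26.0 and 62.9 CPM with anti-PD1 and 20.9, 12.7 and 27.7 CPM with anti-CD40 (1.05 ± 0.37, edgeR adjusted p = 0.344). The lowest anti-PD1 library was just below the highest anti-CD40 library, and all 4 vehicle libraries, at 9.89, 14.3, 17.0 and 12.3 CPM, were below every anti-PD1 library. Gbp4 stood at 17.7, 14.4 and 23.7 CPM with anti-PD1 and 11.3, 6.99 and 11.7 CPM with anti-CD40 (0.90 ± 0.23).

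The list also holds the immunity-related GTPases, a rodent-expanded family that attacks pathogen vacuoles. Ifi47, Iigp1, Igtp, Irgm2 and Irgm1 had log2 changes of 1.32 ± 0.44, 1.25 ± 0.52, 1.16 ± 0.43, 1.01 ± 0.39 and 0.75 ± 0.30. The pair Tgtp1 and Tgtp2 stood at 1.24 and 1.19, but these copies are nearly identical, as are parts of the Gbp cluster, so how reads were shared between them is uncertain. The receptor chain Ifngr1 averaged 32.6 ± 1.29 CPM with anti-PD1 and 32.2 ± 3.78 CPM with anti-CD40 (SD, n = 3 each), and Socs1, the feedback inhibitor, differed by 0.14 ± 0.34. Anti-PD1 3 was the highest library of its group in this list and anti-CD40 2 the lowest of its own. Without anti-PD1 3 the count was 4 of 21, and without anti-CD40 2 it was 5 of 21; the median was 0.54 and 0.63.

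The promoters of 5 of these interferon-responsive genes are printed to show where the letters of the known interferon elements lie in them. Capitals mark every match to 2 motifs searched on both strands: the ISRE-type pair, TTTC and TTTC again with any 2 bases between them, a letter pattern known for IRF proteins, and the GAS pattern TTCNNNGAA, known from interferon-gamma-induced genes. Each window runs from 250 bases before the start site to 50 bases from it on, 5′ to 3′ on the gene's own strand, from RefSeq on GRCm38.p6. Irf1 is at chr11:53769764-53770063, Irf8 at chr8:120736108-120736407, Gbp2 at chr3:142620413-142620712, B2m at chr2:122147437-122147736 and Irgm2 at chr11:58214727-58215026, all on the plus strand.
Irf1: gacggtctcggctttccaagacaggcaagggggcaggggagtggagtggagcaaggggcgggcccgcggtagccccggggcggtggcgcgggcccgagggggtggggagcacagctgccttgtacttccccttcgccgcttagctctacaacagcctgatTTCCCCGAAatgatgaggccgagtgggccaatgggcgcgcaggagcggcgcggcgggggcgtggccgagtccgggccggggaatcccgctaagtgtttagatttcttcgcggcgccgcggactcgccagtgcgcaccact
Irf8: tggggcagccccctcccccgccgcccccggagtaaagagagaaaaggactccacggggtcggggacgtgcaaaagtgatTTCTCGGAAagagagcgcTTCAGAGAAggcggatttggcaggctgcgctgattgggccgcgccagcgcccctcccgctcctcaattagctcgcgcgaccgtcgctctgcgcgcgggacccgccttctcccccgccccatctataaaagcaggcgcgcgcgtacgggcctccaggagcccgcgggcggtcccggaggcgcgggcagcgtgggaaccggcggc
Gbp2: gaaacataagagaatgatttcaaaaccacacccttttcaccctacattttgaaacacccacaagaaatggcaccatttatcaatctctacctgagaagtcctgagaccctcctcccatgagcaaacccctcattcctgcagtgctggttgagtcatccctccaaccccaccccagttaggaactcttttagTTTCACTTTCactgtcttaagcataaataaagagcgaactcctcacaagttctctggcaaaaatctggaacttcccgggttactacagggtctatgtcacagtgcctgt
B2m: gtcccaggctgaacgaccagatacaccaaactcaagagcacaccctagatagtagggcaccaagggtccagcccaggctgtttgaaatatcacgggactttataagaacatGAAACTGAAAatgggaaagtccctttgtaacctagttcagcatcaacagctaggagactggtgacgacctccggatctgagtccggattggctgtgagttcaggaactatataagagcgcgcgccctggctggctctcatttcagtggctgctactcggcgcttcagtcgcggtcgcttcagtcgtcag
Irgm2: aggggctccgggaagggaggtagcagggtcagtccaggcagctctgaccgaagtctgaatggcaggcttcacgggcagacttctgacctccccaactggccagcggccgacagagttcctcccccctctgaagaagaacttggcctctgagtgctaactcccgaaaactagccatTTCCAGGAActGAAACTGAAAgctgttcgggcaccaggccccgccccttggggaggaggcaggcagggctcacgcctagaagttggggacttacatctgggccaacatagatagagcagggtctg

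Irf1 has a GAS match 90 to 82 bases before its start site. Irf8 has a pair of them, 171 to 163 and 153 to 145 bases before. Irf1 and Irf8 each also have a window at another start site, which held no match and is not printed. Gbp2 and B2m have an ISRE-type match, 59 to 50 and 139 to 130 bases before their start sites. Irgm2 has both, a GAS match 75 to 67 bases before and an ISRE-type match 64 to 55 bases before. A promoter window was at hand for 14 of the 21 tested interferon-gamma list genes, and 11 of the 14 (78.6%) held at least 1 of the motifs, against 12.9% of 27025 genes with a window. The ISRE-type motif alone was in 3.44% and the GAS motif in 8.3% of all 32851 windows. In the type I interferon list 12 of 18 genes (66.7%) held either motif, and in the MHC class I list 5 of 12 (41.7%). A match is a description of the sequence and shows no binding in these tumours.

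Antigen presentation genes followed the same direction. In the MHC class I list, which covers heavy chains, peptide transport and the immunoproteasome, 9 of 14 tested genes were higher with anti-PD1 at an unadjusted p under 0.05 and 0 lower, with a median log2 change of 0.43. B2m, the light chain shared by all class I molecules, stood at 420.1, 445 and 623 CPM with anti-PD1 and 308, 236 and 311 CPM with anti-CD40 (0.80 ± 0.17, edgeR adjusted p = 0.158). Vehicle libraries, at 246, 353, 332 and 342 CPM, overlapped with anti-CD40 and not with anti-PD1. The heavy chain H2-K1 stood at 494, 487 and 579 CPM with anti-PD1 and 364, 280.4 and 408 CPM with anti-CD40 (0.57 ± 0.15). The peptide transporter genes Tap1 and Tap2 had log2 changes of 0.64 ± 0.26 and 0.46 ± 0.14. Those of the immunoproteasome genes Psmb8 and Psmb9 were 0.71 ± 0.22 and 0.70 ± 0.27. Without anti-CD40 2 or without anti-PD1 3, 6 of the 14 were higher at an unadjusted p under 0.05, with medians of 0.34 and 0.37.

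In the MHC class II list 9 of 11 tested genes were higher with anti-PD1 at that p and 0 lower, with a median log2 change of 0.65. Cd74, the invariant chain that guards the class II groove, stood at 165, 166 and 232 CPM with anti-PD1 and 121, 86.1 and 117 CPM with anti-CD40 (0.79 ± 0.21, edgeR adjusted p = 0.232). The alpha chain H2-Aa stood at 93.7, 94.3 and 143 CPM with anti-PD1 and 70.0, 52.5 and 80.3 CPM with anti-CD40 (0.71 ± 0.24). Ciita, the master activator of class II genes, averaged 6.17 ± 0.883 CPM with anti-PD1 and 3.65 ± 1.30 CPM with anti-CD40 (SD, n = 3 each), a log2 change of 0.75 ± 0.28. All 4 of Cd74, H2-Aa, Ciita and the peptide loader H2-DMb1 were without overlap. In 8 of the 11 genes every anti-PD1 library was above every anti-CD40 library, against 5.75% of all tested genes. Without anti-CD40 2 the count at an unadjusted p under 0.05 was 5 of 11 and without anti-PD1 3 it was 4 of 11.

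The CXCR3 ligands spanned a wide range within each arm. Cxcl9, the ligand most specific to interferon-gamma, stood at 21.4, 22.4 and 44.7 CPM with anti-PD1 and 12.5, 2.35 and 10.8 CPM with anti-CD40. The anti-CD40 libraries 1 and 3 were above all 4 vehicle libraries, at 1.99, 4.48, 8.10 and 2.96 CPM, while anti-CD40 2 was among them. The log2 change of anti-PD1 over anti-CD40 was 1.78 ± 0.76 (edgeR adjusted p = 0.439). Cxcl10 stood at 13.7, 11.0 and 19.6 CPM with anti-PD1, 8.77, 1.37 and 5.99 CPM with anti-CD40 and 0.754, 2.27, 3.25 and 1.71 CPM with vehicle (1.45 ± 0.75 for anti-PD1 over anti-CD40, edgeR adjusted p = 0.519). The receptor Cxcr3 was under 1 CPM in all 6 libraries. Type I interferon response genes were mostly on the anti-PD1 side, at a median log2 change of 0.63, but 2 of 25 reached an unadjusted p under 0.05 and 0 were lower. Anti-CD40 3 and anti-PD1 3 were the highest libraries for them. The count was 15 without anti-CD40 3, with a median of 1.34, and 0 without anti-CD40 2 or without anti-PD1 3, with medians of 0.34 and 0.24. It was 1 without anti-CD40 1 or anti-PD1 1, 7 by limma with sample weights and 19 with the replicate number as a block in the 6 libraries.

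**Figure D3:**
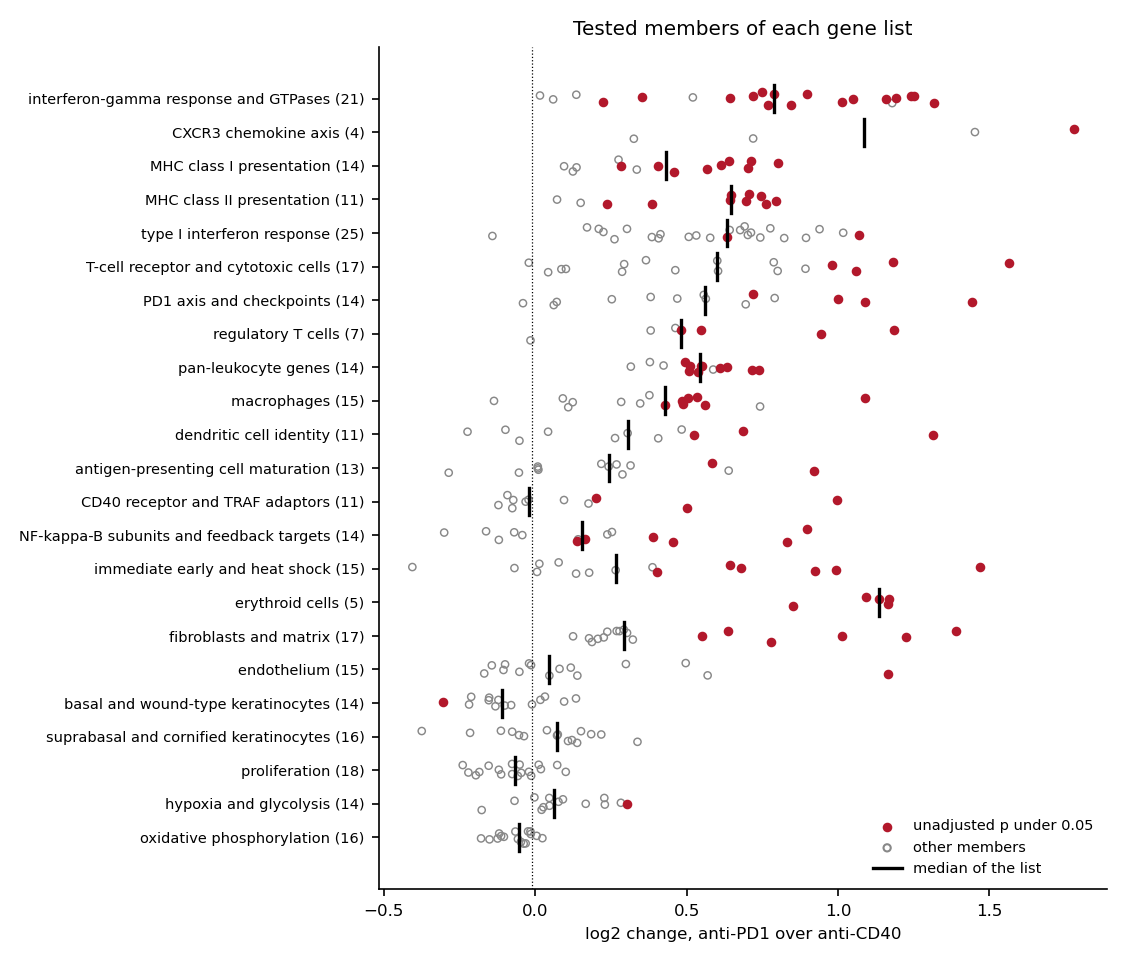
Log2 change of anti-PD1 over anti-CD40 for each tested member of 23 gene lists (number of tested members in brackets), with filled points for members at an unadjusted p under 0.05, a bar at the list's median and a dotted line at the median of all genes, -0.01. The interferon-gamma, MHC, T-cell, checkpoint and leukocyte lists lie to the right of the line. The medians of the basal keratinocyte, proliferation and oxidative phosphorylation lists lie slightly left of it, at -0.11, -0.07 and -0.05. That of the suprabasal list lies slightly right of it, at 0.07.

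None of the tested genes listed for CD40 and its adaptors, or for NF-kappa-B, was higher with anti-CD40 at an unadjusted p under 0.05 in edgeR over all libraries. Cd40 itself stood at 0.972, 0.996 and 1.84 CPM with anti-PD1 and 0.574, 0.765 and 0.582 CPM with anti-CD40, without overlap, and at 0.794, 0.856, 0.692 and 0.571 CPM with vehicle (1.00 ± 0.36, edgeR adjusted p = 0.343). Of 11 tested genes for CD40, its TRAF adaptors and the kinases below them, 3 were higher with anti-PD1 at an unadjusted p under 0.05 and 0 lower, and the median log2 change was -0.02, against -0.01 over all genes. Traf1, an NF-kappa-B target among the adaptors, stood at 2.43, 3.54 and 3.41 CPM with anti-PD1 and 3.19, 1.58 and 1.87 CPM with anti-CD40 (0.50 ± 0.22). Without anti-PD1 3 the count for this list was 0. With the salivary gland covariate, and again without the libraries rich in gland RNA (anti-PD1 1 and 2, anti-CD40 2 and vehicle 2), 1 gene of it was higher with anti-CD40 at that p. The ligand gene Cd40lg had 1, 0 and 4 counts with anti-PD1 and 1, 0 and 2 with anti-CD40, too few to test.

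Among NF-kappa-B subunits and feedback targets 6 of 14 were higher with anti-PD1 at that p and 0 lower, with a median log2 change of 0.15. Nfkbie, an inhibitor induced by the factor it binds, stood at 3.11, 3.38 and 3.91 CPM with anti-PD1 and 1.93, 1.91 and 1.75 CPM with anti-CD40 (0.90 ± 0.19, edgeR adjusted p = 0.128). Tnfaip3, the A20 feedback enzyme, stood at 12.4, 11.1 and 7.99 CPM with anti-PD1 and 6.21, 5.68 and 5.78 CPM with anti-CD40 (0.83 ± 0.22). The subunit of the non-canonical branch, Nfkb2, stood at 23.7, 25.0 and 22.7 CPM with anti-PD1 and 19.7, 16.1 and 16.3 CPM with anti-CD40 (0.45 ± 0.14), while its partner Relb differed by 0.24 ± 0.18 and the main inhibitor Nfkbia by -0.16 ± 0.15. Without anti-CD40 2, 3 were higher with anti-PD1 and 1 was lower, and the median was 0.07.

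Maturation genes of antigen-presenting cells, which CD40 ligation is known to raise in dendritic cells, were also not higher with anti-CD40 at that p. Of 13 tested, 2 were higher with anti-PD1 and 0 lower, and 1 was higher without anti-CD40 2 or without anti-PD1 3. Cd83, a surface marker of mature dendritic cells, stood at 3.60, 2.55 and 4.80 CPM with anti-PD1 and 2.04, 2.02 and 1.75 CPM with anti-CD40 (0.92 ± 0.27, edgeR adjusted p = 0.257). The costimulatory ligand Cd86 stood at 2.33, 2.77 and 4.26 CPM with anti-PD1 and 2.30, 1.75 and 2.20 CPM with anti-CD40 (0.58 ± 0.22), whereas its relative Cd80 stood at 1.22, 1.61 and 1.80 CPM with anti-PD1 and 2.04, 1.64 and 1.95 CPM with anti-CD40 (-0.29 ± 0.23). Ccr7, which guides mature dendritic cells to lymph nodes, differed by 0.22 ± 0.41, Ccl22, a chemokine of those cells, by 0.01 ± 0.38, and Il12b, a subunit of interleukin-12, by 0.27 ± 1.01. Of 11 dendritic cell identity genes, Irf8, Itgax and Cd209a were higher at that p. Without anti-PD1 3 the count was 1, and without anti-CD40 3 it was 2, with 1 gene lower. Itgax, an integrin of dendritic cells and some macrophages, stood at 7.83, 8.58 and 11.0 CPM with anti-PD1 and 6.32, 3.88 and 6.82 CPM with anti-CD40 (0.69 ± 0.23).

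B cells also carry CD40, but their genes were scarce: 12 of 18 listed genes did not pass the count filter, and 0 of the 6 tested reached an unadjusted p under 0.05 in either direction. Ms4a1, which encodes CD20, had 0, 1 and 2 counts with anti-PD1 and 2, 1 and 1 with anti-CD40. Cd79a, a chain of the B-cell receptor, had 9, 3 and 3 counts with anti-PD1 and 2, 1 and 1 with anti-CD40. The immunoglobulin heavy chain gene Ighm stood at 9.09, 9.85 and 6.06 CPM with anti-PD1 and 5.43, 8.03 and 5.86 CPM with anti-CD40 (0.37 ± 0.30).

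Genes shared by most leukocytes were higher in the anti-PD1 arm across the list. Of 14 tested, 10 were higher at an unadjusted p under 0.05 and 0 lower, and in 12 every anti-PD1 library was above every anti-CD40 library, against 5.75% of all genes. The median log2 change was 0.54. Without anti-CD40 2, 7 of the 14 were higher at an unadjusted p under 0.05, with a median of 0.45. Laptm5, a lysosomal protein of blood cells, stood at 21.1, 22.4 and 24.8 CPM with anti-PD1 and 16.3, 14.4 and 17.3 CPM with anti-CD40 (0.51 ± 0.12). Ptprc, which encodes the leukocyte antigen CD45, averaged 12.8 ± 1.29 CPM with anti-PD1 and 8.98 ± 1.41 CPM with anti-CD40 (SD, n = 3 each), a log2 change of 0.51 ± 0.17. The summed CPM of the 14 genes ran from 132 to 149 with anti-PD1 and from 89.9 to 104 with anti-CD40. These genes stood on the same side as the interferon, MHC and T-cell lists, and the part of leukocyte content in those lists was not tested.

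Macrophage genes stood on the same side. Of 15 tested, 7 were higher at that p and 0 lower, with a median log2 change of 0.43. Csf1r, the receptor that sustains macrophages, stood at 30.4, 28.8 and 35.8 CPM with anti-PD1 and 22.7, 23.5 and 20.9 CPM with anti-CD40 (0.50 ± 0.12). The complement gene C1qb stood at 21.8, 17.9 and 24.8 CPM with anti-PD1 and 15.7, 14.9 and 13.3 CPM with anti-CD40 (0.56 ± 0.17), and Adgre1, which encodes F4/80, at 5.74, 5.37 and 7.36 CPM with anti-PD1 and 4.49, 4.92 and 3.41 CPM with anti-CD40 (0.53 ± 0.21). The scavenger receptor Cd163 overlapped between the arms (0.17 ± 0.20). Without anti-PD1 3 the count was 2 of 15, without anti-CD40 3 it was 3, and by limma with sample weights it was 2. Chil3, a chitinase-like protein of alternatively activated macrophages with near-identical relatives, stood at 3.69, 1.16 and 0.808 CPM with anti-PD1 and 0.157, 0.0546 and 0.208 CPM with anti-CD40 (3.65 ± 0.75). The anti-CD40 levels of Chil3 rested on few reads, so the size of its change is uncertain. Anti-PD1 1, the highest library for Chil3, also had the highest mean log2 CPM of the adipocyte and of the fibroblast and matrix lists.

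Chemokines and neutrophil genes depended more on single libraries. Ccl2, which draws monocytes, stood at 6.17, 3.71 and 5.07 CPM with anti-PD1 and 3.24, 1.20 and 1.16 CPM with anti-CD40, and at 0.754, 1.51, 0.905 and 0.882 CPM with vehicle (1.43 ± 0.42 for anti-PD1 over anti-CD40, edgeR adjusted p = 0.257). S100a8, a calcium-binding protein of neutrophils that inflamed keratinocytes also make, ranged more within the anti-CD40 arm than between the arms, at 179, 168 and 215 CPM with anti-PD1 and 726, 7.59 and 498 CPM with anti-CD40 (-1.13 ± 1.35). Cxcl2, a neutrophil chemokine, was carried by 1 library in each arm, at 3.50, 0.221 and 0.135 CPM with anti-PD1 and 0.783, 0.218 and 0.0831 CPM with anti-CD40. In the neutrophil list 1 of 11 genes was higher at an unadjusted p under 0.05 and 0 lower, and in the list of inflammatory cytokines 1 of 10 and 0. That 1 gene of the cytokine list was Ptgs2, the inducible cyclooxygenase, at 11.3, 5.31 and 5.97 CPM with anti-PD1 and 4.86, 2.79 and 4.74 CPM with anti-CD40.

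**Figure D4:**
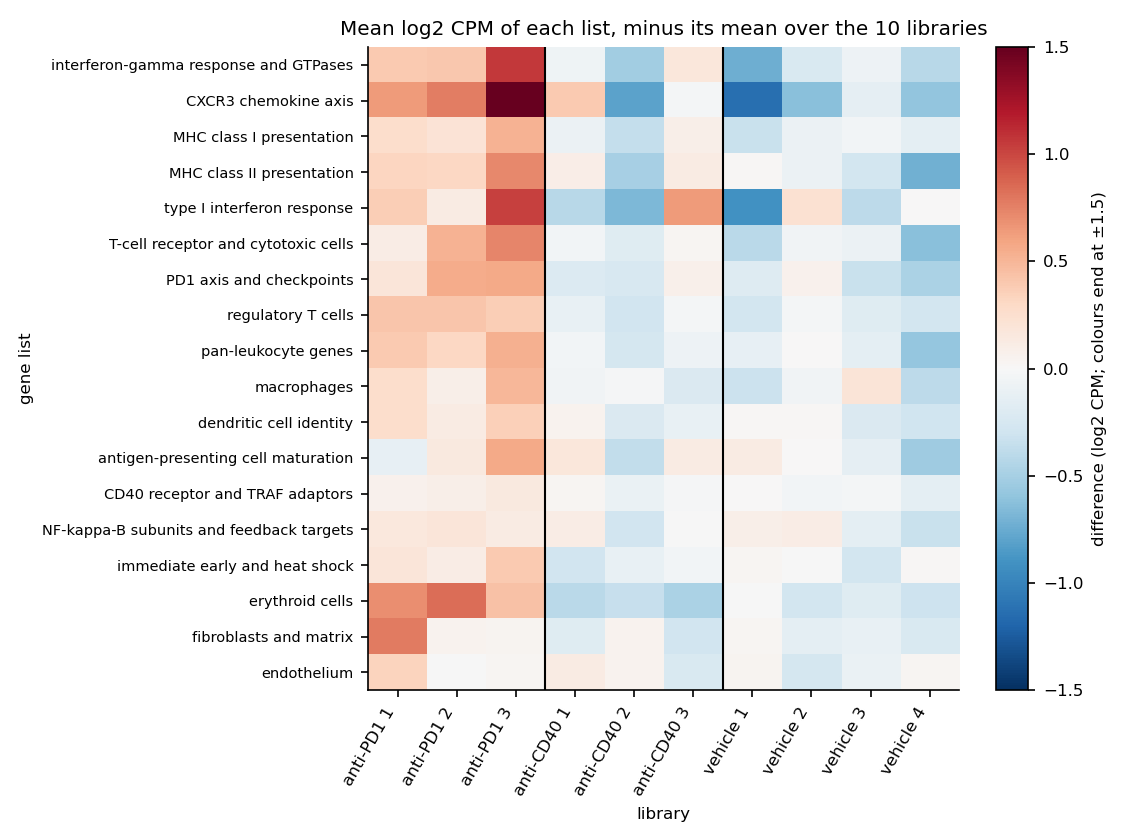
Mean log2 CPM of the tested members of 18 gene lists in the 3 anti-PD1, 3 anti-CD40 and 4 vehicle libraries, each minus the list's mean over these 10 libraries (colour, ending at 1.5 either way). Anti-PD1 3 is the highest library in the interferon and MHC lists and anti-CD40 2 the lowest of its group in them.

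Several immediate early genes, which cells induce soon after a stimulus, stood higher with anti-PD1 than with anti-CD40. Of 15 tested genes, heat shock genes included, 6 were higher with anti-PD1 at an unadjusted p under 0.05 and 0 lower. The list mean ran from 5.17 to 5.45 log2 CPM with anti-PD1, above all vehicle libraries, at 4.77 to 5.07. With anti-CD40 it ran from 4.76 to 5.00 and overlapped vehicle. The list's median log2 change over vehicle was 0.23 with anti-PD1 and -0.06 with anti-CD40. At an unadjusted p under 0.05 in edgeR against vehicle, 4 were higher and 0 lower with anti-PD1, and 1 higher and 3 lower with anti-CD40. Over all tested genes, 9.32% reached that p against vehicle with anti-PD1 and 6.06% with anti-CD40, both directions together. Dusp1, a phosphatase that switches off MAP kinases, stood at 73.9, 83.4 and 98.2 CPM with anti-PD1 and 47.9, 55.9 and 59.7 CPM with anti-CD40 (0.64 ± 0.14, edgeR adjusted p = 0.128). Vehicle libraries, at 82.3, 99.7, 81.7 and 86.6 CPM, lay with the anti-PD1 libraries, and the log2 change of anti-CD40 over vehicle was -0.68 ± 0.13 (edgeR adjusted p = 0.185). Nr4a1, an orphan nuclear receptor, stood at 48.9, 44.6 and 33.8 CPM with anti-PD1, 16.4, 28.4 and 19.1 CPM with anti-CD40 and 35.7, 33.6, 24.3 and 25.1 CPM with vehicle (0.99 ± 0.23 for anti-PD1 over anti-CD40). Fos, Fosb and Jun, parts of the AP-1 factor, differed by 0.92 ± 0.23, 1.47 ± 0.42 and 0.40 ± 0.10, while Egr1 and Junb differed by -0.07 ± 0.35 and 0.08 ± 0.14.

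Stromal genes were set apart mainly by anti-PD1 1. Of 17 fibroblast and matrix genes, 6 were higher with anti-PD1 at an unadjusted p under 0.05 and 0 lower. Col1a1, a chain of type I collagen, stood at 91.3, 47.3 and 46.9 CPM with anti-PD1 and 33.7, 40.9 and 33.8 CPM with anti-CD40 (0.78 ± 0.25, edgeR adjusted p = 0.305). Postn, a matrix protein of wounds and tumour stroma, stood at 42.9, 14.9 and 11.4 CPM with anti-PD1 and 9.71, 9.83 and 10.1 CPM with anti-CD40 (1.22 ± 0.42). Without anti-PD1 1 the count was 0 of 17 and the median log2 change was 0.09, against 0.29 with it; the count was 3 without anti-CD40 3. Among 15 endothelial genes the median was 0.05, and Sele, an adhesion molecule of inflamed endothelium, was the 1 gene at that p, at 3.35, 1.88 and 1.71 CPM with anti-PD1 and 1.57, 0.655 and 0.873 CPM with anti-CD40 (1.16 ± 0.39).

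The squamous epithelium itself differed little. Of 14 basal keratinocyte genes 0 were higher and 1 was lower at an unadjusted p under 0.05, with a median log2 change of -0.11. That gene was Trp63, the master regulator of stratified epithelium, at 196, 206 and 228 CPM with anti-PD1 and 258, 226 and 293 CPM with anti-CD40 (-0.30 ± 0.13, edgeR adjusted p = 0.444). Krt6a, a wound keratin with near-identical copies, stood at 5058, 6177 and 7210 CPM with anti-PD1 and 7345, 5528 and 7650 CPM with anti-CD40 (-0.15 ± 0.15). None of 16 suprabasal genes and none of 18 proliferation genes reached that p. Mki67, a marker of cycling cells, stood at 82.8, 78.3 and 95.7 CPM with anti-PD1 and 88.8, 79.8 and 126 CPM with anti-CD40 (-0.20 ± 0.15). Hypoxia and glycolysis genes had 1 of 14 and oxidative phosphorylation genes 0 of 16 at that p, with median log2 changes of 0.06 and -0.05. These counts moved with single libraries. Without anti-CD40 3, 5 of the 16 oxidative phosphorylation genes were lower with anti-PD1, at a median of -0.18, and without anti-CD40 2, 3 of the 18 proliferation genes were.

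For all 5 genes of red blood cells tested, every anti-PD1 library was above every anti-CD40 library, against 5.75% of all tested genes. All 5 reached an unadjusted p under 0.05. Alas2, the first enzyme of haem synthesis in erythroid cells, stood at 6.37, 6.37 and 4.49 CPM with anti-PD1 and 2.56, 2.84 and 2.66 CPM with anti-CD40 (1.09 ± 0.28, edgeR adjusted p = 0.209). Hba-a1, an alpha-globin gene with a near-identical copy, stood at 35.3, 43.6 and 28.2 CPM with anti-PD1 and 16.4, 17.2 and 14.2 CPM with anti-CD40 (1.17 ± 0.29). The median of the 5 was 1.14, and the list's summed CPM ran from 137 to 176 with anti-PD1 and from 75.3 to 81.5 with anti-CD40. Blood genes stood on the same side as the leukocyte genes, and the part of blood content in those values was not tested.

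Among genes of tissue other than the tumour, those of salivary gland, adipocytes and stomach varied widely between libraries of the same treatment. Muc5b, a mucin of salivary glands, stood at 13492, 3491 and 1.12 CPM with anti-PD1 and 2.51, 980.2 and 13.1 CPM with anti-CD40, so that both groups held libraries of high and low level (4.09 ± 3.77, edgeR adjusted p = 0.751). Adipocyte genes followed a related order, with list means of 3.48, 2.56 and 1.72 log2 CPM in anti-PD1 1 to 3 and 1.70, 2.10 and 1.03 in anti-CD40 1 to 3. The summed CPM of the 7 genes ran from 196 to 222 with anti-PD1 and from 160.4 to 234 with anti-CD40, so that the sums overlapped. Adipoq, the fat cell hormone adiponectin, stood at 3.60, 1.27 and 0.449 CPM with anti-PD1 and 0.209, 0.492 and 0.166 CPM with anti-CD40, while Pparg, the regulator of fat cell formation, stood at 4.42, 4.10 and 4.13 CPM with anti-PD1 and 8.09, 6.61 and 4.61 CPM with anti-CD40. Of 7 adipocyte genes 4 were higher and 1 was lower at an unadjusted p under 0.05; 1 was higher without anti-PD1 1 and 2 without anti-CD40 3. Of 19 skeletal muscle genes 0 reached that p, though 3 were lower without anti-CD40 3, and Acta1, skeletal actin, stood at 4809, 5956 and 5095 CPM with anti-PD1 and 5458, 6367 and 3994 CPM with anti-CD40. Anti-CD40 1 had the highest mean log2 CPM of the 11 tested stomach genes, -0.14, against -2.63 to -1.34 with anti-PD1. Gkn1, a stomach lining protein, stood at 0.0486, 0.443 and 0.0449 CPM with anti-PD1 and 5.06, 0.109 and 0 CPM with anti-CD40. The summed CPM of the stomach genes ran from 1.12 to 49.4 with anti-PD1 and from 0.873 to 18.3 with anti-CD40, so these sums overlapped.

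**Figure D5:**
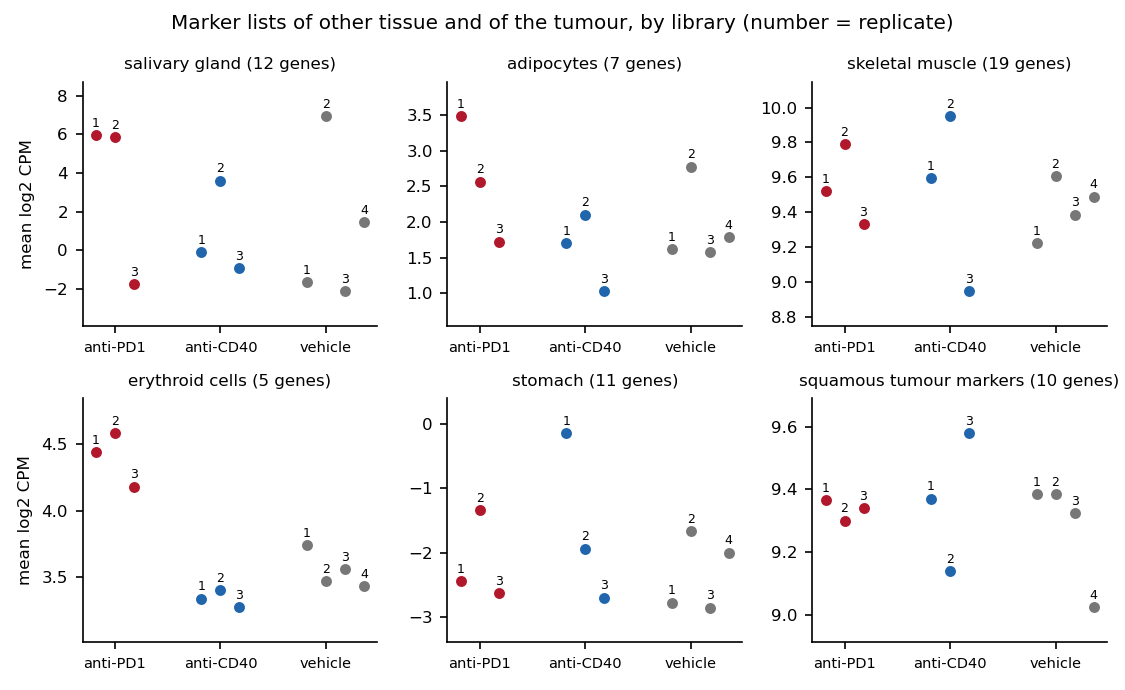
Mean log2 CPM of 6 marker lists in each library (points, numbered by replicate) of the anti-PD1, anti-CD40 and vehicle groups; the y axes do not start at 0 and differ between panels. Anti-PD1 1, anti-PD1 2, anti-CD40 2 and vehicle 2 are high for salivary gland genes, the erythroid list is higher in each anti-PD1 library than in any other library shown, and anti-CD40 1 is highest for stomach genes.

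Leaving out the gland-rich libraries (anti-PD1 1 and 2, anti-CD40 2 and vehicle 2) left 1 anti-PD1 library against 2 anti-CD40 libraries, with the lone library assumed to vary like those of the other groups. No gene passed an adjusted p of 0.05 in edgeR then, and 405 were higher and 635 lower at an unadjusted p under 0.05. In that fit 14 of 21 interferon-gamma list genes and 6 of 14 leukocyte genes were higher at that p, as were 2 of 14 checkpoint, 1 of 14 NF-kappa-B, 1 of 5 erythroid, 0 of 17 fibroblast and 0 of 7 adipocyte genes. The lone library was anti-PD1 3, the highest of its group for the interferon-gamma list, and anti-CD40 2, the lowest of its own, was left out.

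Beside vehicle, both comparisons use the same 4 vehicle libraries, so their values stand side by side and are no independent support for each other. In edgeR, 0 genes passed an adjusted p of 0.05 for anti-PD1 over vehicle (smallest 0.0594; 9.32% of genes at an unadjusted p under 0.05) and 0 for anti-CD40 over vehicle (smallest 0.0566; 6.06%). Irf8 differed from vehicle by 1.12 ± 0.21 log2 with anti-PD1 and -0.19 ± 0.22 with anti-CD40, and Cd74 by 0.89 ± 0.19 with anti-PD1 and 0.10 ± 0.20 with anti-CD40. Cxcl9 differed by 2.77 ± 0.72 with anti-PD1 and 0.99 ± 0.73 with anti-CD40. Cd3e stood above vehicle in both arms, by 1.27 ± 0.30 with anti-PD1 and 1.17 ± 0.30 with anti-CD40. For Amotl2 and Dusp1 the larger difference from vehicle was with anti-CD40: Amotl2 differed by -0.04 ± 0.08 with anti-PD1 and -0.52 ± 0.08 with anti-CD40 (edgeR adjusted p = 0.0566), and Dusp1 by -0.04 ± 0.13 with anti-PD1 and -0.68 ± 0.13 with anti-CD40. Pappa differed in opposite directions, by -0.32 ± 0.13 with anti-PD1 and 0.51 ± 0.13 with anti-CD40.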

How the data were processed

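The series holds RNA counts of 19 oral tumour samples, of which 3 anti-PD1 and 3 anti-CD40 samples are compared, grouped by their titles and treatment labels. Per the labels' protocols, a combined DNA and RNA kit gave the RNA, and a stranded mRNA kit the libraries. The submitters' processing notes name cutadapt 2.4, STAR 2.7.2a and GRCm38. How reads were assigned to genes (program, strand, annotation) is not given in the sources used here, so overlapping, antisense and near-identical genes are uncertain. The authors deposited raw counts, whole numbers per gene for 55487 versioned Ensembl genes. Symbols and coordinates (1-based, whole genes) came from GENCODE M21 on GRCm38, in which 55227 of the IDs were found once versions were dropped.

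Filtering low counts by group (filterByExpr) kept 16909 genes, which held 99.9% of counts. edgeR 4.0.16 in R 4.3.3 fitted 1 mean per group over all 19 libraries, so that the groups share an estimate of the spread, with TMM scaling and a robust quasi-likelihood prior (14 residual degrees of freedom). P-values are two-sided, with the Benjamini-Hochberg adjustment across the 16909 genes and a threshold of 0.05. CPM are of TMM-scaled counts, log2 CPM used a prior count of 2, and each SE was derived from the F statistic as the size of the log2 change over the root of F. The fit was also run on simulated counts with set changes in some genes. Those counts lacked the tissue differences between libraries seen here, so that run cannot show how the fit handles them. The SEs cover the spread between libraries, and genes of few counts were not tested.

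The comparison, the 36 gene lists, the named genes and the alternatives were chosen with earlier results of these data known. The rule named the 8 genes of smallest p in each direction with a mean of at least 1 CPM in either group, a fixed set of immune and tissue genes, and the 2 members of smallest p of each list; other list members named in the text were chosen after their values were seen. Tried besides were DESeq2 1.42.0, RLE scaling, no filter, limma 3.58.1 with sample weights, only the 6 libraries, a replicate block, muscle and gland covariates and leaving out each library; a non-robust prior and leaving out the gland-rich libraries were added after seeing the data. Libraries of a group did not agree within sampling noise (smallest chi-square over its degrees of freedom, 29.3). Python 3.11.15 with matplotlib 3.10.9 drew the figures.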

Additional observations from a re-analysis of the deposited data

Results flagged for a closer look

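Vehicle was the only group shown with 4 or more samples, and single libraries were tested for standing apart only there. Chance marks about 1 in 20 such groups. The rule was applied to every gene list and to a set of named genes, so some marks by chance are to be reckoned with. Muc5b, the salivary mucin, stood at 5349 CPM in vehicle 2, far from the other vehicle libraries. The mean of the adipocyte list was 2.78 log2 CPM in vehicle 2, above the others. The mean of the immediate early and heat shock list was 4.77 log2 CPM in vehicle 3, below the others. The mean of the squamous tumour marker list was 9.02 log2 CPM in vehicle 4, also below the others. The marks of the adipocyte and squamous lists passed the rule only narrowly.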

How the results depend on the processing

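No gene passed an adjusted p of 0.05 with RLE scaling, with only the 6 libraries, with either covariate, with a non-robust prior or without the gland-rich libraries. The count was 4 with no filter on low counts, 77 in DESeq2 and 33 in limma with sample weights, and it ranged from 0 to 4 over leaving out each library, where it was 4 without anti-PD1 2 and 4 without anti-PD1 3. At an unadjusted p under 0.05, limma gave 1388 genes higher and 1583 lower, only the 6 libraries gave 670 higher and 439 lower, the other way round from 747 and 994 over all libraries, and leaving out the gland-rich libraries gave 405 higher and 635 lower. Leaving out single libraries gave 519 to 975 higher and 666 to 1178 lower. The cause of these shifts was not tested.

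Same-numbered libraries of the arms deviated together for numbers 2 and 3 (r = 0.46 each) but not for number 1 (r = -0.07), and anti-PD1 1 correlated best with anti-CD40 2 (r = 0.28), so the numbers were not taken as pairs. With the replicate number as a block, 0 genes passed over all 19 libraries, and 14 passed with the replicate block in only the 6 libraries, where 964 genes were higher and 449 lower at an unadjusted p under 0.05.

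For 110 named genes, 1760 values came from these settings except the fit without the gland-rich libraries, which was not counted. Of these values, 54 crossed the adjusted threshold, 30 of them in DESeq2, and 25 changed sign. Over leaving out single libraries the log2 change ran from -0.22 to 0.36 for Cd3e, -0.13 to 0.58 for Ccr7, -0.40 to 0.87 for Il12b, -0.29 to 0.27 for Ccl22, -0.98 to 3.12 for Cxcl2, -0.19 to 0.16 for Krt14, -0.32 to 0.023 for Mki67, -0.16 to 0.16 for Acta1, -0.41 to 0.89 for Cxcl13, -0.42 to 0.090 for Krt10 and -5.01 to 1.68 for Gkn1. In limma, Ccl22 stood at -0.092, Cxcl2 and Cxcl13 at -0.089, Krt14 at -0.051 and Krt10 at 0.12. Acta1 stood at -0.00804 with the muscle covariate and -0.038 with the gland covariate, and Muc5b at -0.65 with the gland covariate.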

Other observations

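Several further lists held few genes at an unadjusted p under 0.05. Among matrix metalloproteinases and their inhibitors 2 of 11 tested genes were higher with anti-PD1 and 0 lower, and Timp2, an inhibitor, stood at 144, 117 and 115 CPM with anti-PD1 and 94.2, 109.7 and 102 CPM with anti-CD40. Among monocyte-attracting chemokines and receptors 2 of 8 were higher and 0 lower, Ccl2 and Ccl7. In the list of M2-type macrophages 2 of 12 were higher and 0 lower, and Lyve1, a hyaluronan receptor of tissue macrophages and lymphatic vessels, stood at 18.5, 18.4 and 17.1 CPM with anti-PD1 and 12.9, 16.2 and 11.5 CPM with anti-CD40. In the mast cell list 1 of 10 was higher, Kit, at 8.41, 6.81 and 4.94 CPM with anti-PD1 and 2.82, 4.48 and 4.95 CPM with anti-CD40. Among Schwann cell genes 2 of 8 were higher and 0 lower, and Sox10, the lineage factor of these cells, stood at 11.2, 7.75 and 7.63 CPM with anti-PD1 and 6.37, 6.72 and 5.15 CPM with anti-CD40. Among squamous tumour markers 0 of 10 were higher and 2 were lower, Trp63 and Sfn. In the salivary gland list 1 of 12 was higher, and in the stomach list 0 of 11 differed at that p. Most of these counts moved with single libraries: without anti-PD1 1, 0 of the metalloproteinase, mast cell and Schwann cell genes reached that p.

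The 747 genes on the anti-PD1 side at an unadjusted p under 0.05 were shorter than the 994 on the other side: their median exon lengths were 3781 and 4900 bases, and that of all tested genes 3942 bases. Transcript length was not used in any fit, and its part was not tested.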
